A study of Mus musculus with 12 samples.

Results

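Oligodendrocytes sorted from the brains of Cnp-Cre Jab1fl/fl mice were compared with those of WT mice by RNA-Seq. The comparison took 8 of the 12 samples in the table, 4 per genotype, and tested the 17716 of 55376 gene symbols with at least 1 CPM (counts scaled to the same total for each library) in 4 or more of the 12 samples. All samples came from C57BL/6 mice at postnatal day 40 (P40), and each pooled the cells of 2 brains. Cells were dissociated with collagenase, freed of myelin on a Percoll gradient, and sorted as live single cells that lacked CD45, a surface protein of leukocytes, and carried O1, a glycolipid of differentiating oligodendrocytes. In the mutants both alleles of Jab1 are floxed and Cre is driven by Cnp, which is active in late oligodendrocyte precursor cells (OPCs) and in oligodendrocytes, and also in Schwann cells of peripheral nerve. The labels give the controls as wild-type without stating whether they carried Cre or a floxed allele. The 4 samples not compared came from double mutants that also lack p21, and they entered only the filter and the scaling of CPM. Below, "mutant" stands for Cnp-Cre Jab1fl/fl, and values of single samples are given in the order of the replicate numbers, which are 1, 3, 5 and 6 in WT and 1 to 4 in mutants.

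JAB1, encoded by Cops5, is the catalytic subunit of the COP9 signalosome, which removes the ubiquitin-like protein NEDD8 from cullins and thereby regulates the ubiquitin ligases built on them. Oligodendrocytes wrap axons in myelin, a membrane rich in cholesterol, galactolipids and a few structural proteins, and their late program depends on the transcription factors SOX10 and MYRF. Microglia, the resident macrophages of the brain, depend on the receptor CSF1R and signal through TREM2 and its adaptor TYROBP, and they express CD45.

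Of the genes tested, 919 (5.19%) had higher and 435 (2.46%) lower counts in mutants at an adjusted p below 0.05 in edgeR's quasi-likelihood test, and these shares are the background for every list of genes that follows. The median log2 fold change, which is the mutant level against the WT level on a log2 scale, was 0.02 over all genes tested, 2.96 over the higher and -1.93 over the lower genes. Among the higher genes, 207 were above WT by at least 5 on the log2 scale. Of the 1354 genes past the threshold 1222 had no overlap between the groups. Genes picked by a small p are mostly apart for that reason, and the share without overlap over all genes tested was not counted. A lack of overlap in a called gene, as given below, therefore describes its values and is no further support. The filter admits genes near 0 in WT through other samples, so medians of lists low in WT lean upward. Fold changes of single genes are given with ± their standard error (n = 4 per group). Total counts ranged from 61485556 to 153495112 per sample, so that by these totals 1 CPM stood for 61.5 to 154 counts. The printed CPM were in addition divided by a scaling factor of each sample, from 0.8134 to 1.184 over the 8 samples. Across genes, which do not count as replicates of each other, the correlation of samples (Pearson's r) was 0.92 to 0.956 within WT and 0.854 to 0.881 within mutants, and mutant replicate 2 stood nearest to WT, with a mean r of 0.88 to WT and 0.862 to the other mutants. Without that sample 1196 genes were higher and 667 lower, whereas without any other sample there were fewer, down to 504 and 174 without WT replicate 5. Of 225 genes that passed the test and are named below, 140 passed in all 8 fits that left out 1 sample. Where 1 or 2 genes of a list passed in a direction, 19 of 31 such counts went to 0 in at least 1 of these fits, and for larger counts the range is given where it departs by over 1.5 times.

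Short stretches of promoter are shown first for 3 groups of genes that are described below, because each group is known to answer to a DNA element that could be looked for by its letters. Interferon acts through the interferon-stimulated response element (ISRE), searched here as GAAA, any 2 bases and GAAA. The integrated stress response acts through ATF4, which binds C/EBP-ATF response elements (CARE), searched as TTGCATCA and, with a free base, as TGATGNAA, of which the first is a special case on the other strand. PU.1, the master transcription factor of macrophages and microglia, binds sites such as GAGGAAGT. Windows ran from 250 bases before to 50 bases after each start in RefSeq, both strands were searched, and a gene counted as holding a motif if any of its windows did. Of the 30 interferon-stimulated genes listed, 22 had a window and 14 of these (63.6%) held the ISRE letters, as compared with 3.99% of 27025 genes with a promoter, and of the 14 with a window that rose in mutants 11 held them. For the integrated stress response, TTGCATCA was in 7 of 29 genes (24.1%) and in 1.03% of all, and TGATGNAA in 10 of 29 (34.5%) and in 4.51% of all. GAGGAAGT was found in 4 of 26 haematopoietic regulators of GTPases and actin, 3 of 20 genes of ITAM receptor signalling and 2 of 14 microglia markers, against 3.69% of all genes. A match describes the letters and not the binding of a factor. The 250 bases before the start are printed below on the strand of the gene with matches in capitals (GRCm38.p6). They lie at chr19:34640639-34640888 (forward) for Ifit1, chr4:156200819-156201068 (reverse) for Isg15, chr1:191183334-191183583 (reverse) for Atf3, chr2:119350992-119351241 (forward) for Chac1, chr6:7693210-7693459 (reverse) for Asns, chr17:57278850-57279099 (forward) for Vav1 and chr4:136892915-136893164 (reverse) for C1qc.
Ifit1: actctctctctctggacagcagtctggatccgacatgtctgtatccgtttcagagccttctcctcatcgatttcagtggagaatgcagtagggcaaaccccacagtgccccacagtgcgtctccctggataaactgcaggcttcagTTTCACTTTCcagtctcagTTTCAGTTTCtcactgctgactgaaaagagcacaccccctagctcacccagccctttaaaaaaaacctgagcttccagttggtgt
Isg15: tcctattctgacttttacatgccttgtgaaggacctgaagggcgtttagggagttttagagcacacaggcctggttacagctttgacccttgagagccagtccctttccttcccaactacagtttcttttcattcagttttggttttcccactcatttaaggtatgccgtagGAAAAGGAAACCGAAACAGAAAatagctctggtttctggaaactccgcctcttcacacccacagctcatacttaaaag
Atf3: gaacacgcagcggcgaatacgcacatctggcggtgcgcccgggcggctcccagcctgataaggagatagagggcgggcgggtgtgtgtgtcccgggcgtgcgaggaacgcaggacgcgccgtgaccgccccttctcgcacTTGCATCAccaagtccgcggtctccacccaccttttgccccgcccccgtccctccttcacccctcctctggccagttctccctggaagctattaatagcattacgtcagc
Chac1: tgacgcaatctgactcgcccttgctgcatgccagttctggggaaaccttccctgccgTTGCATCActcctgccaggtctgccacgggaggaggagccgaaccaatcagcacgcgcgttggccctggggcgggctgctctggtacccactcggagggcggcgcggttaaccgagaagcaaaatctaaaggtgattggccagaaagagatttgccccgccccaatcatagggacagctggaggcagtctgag
Asns: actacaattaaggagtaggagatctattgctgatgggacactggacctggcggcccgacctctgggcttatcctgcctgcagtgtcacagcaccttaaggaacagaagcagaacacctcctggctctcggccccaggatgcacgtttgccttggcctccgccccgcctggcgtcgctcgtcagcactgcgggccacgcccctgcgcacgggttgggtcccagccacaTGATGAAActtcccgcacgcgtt
Vav1: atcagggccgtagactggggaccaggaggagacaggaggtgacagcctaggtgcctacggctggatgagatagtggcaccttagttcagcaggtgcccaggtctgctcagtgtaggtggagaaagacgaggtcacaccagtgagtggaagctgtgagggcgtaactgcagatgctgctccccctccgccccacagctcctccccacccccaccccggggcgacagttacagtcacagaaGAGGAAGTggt
C1qc: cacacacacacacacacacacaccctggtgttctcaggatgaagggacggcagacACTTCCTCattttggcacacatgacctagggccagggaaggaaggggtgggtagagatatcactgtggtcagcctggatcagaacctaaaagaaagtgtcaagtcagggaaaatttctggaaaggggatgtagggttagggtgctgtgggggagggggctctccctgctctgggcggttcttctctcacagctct
Ifit1 and Isg15 stand for the ISRE, which Ifit1 held 2 times and Isg15 3 times in overlapping matches. Atf3 and Chac1 each held 1 TTGCATCA, Asns 1 TGATGNAA, and Vav1 and C1qc 1 GAGGAAGT, which in C1qc and in Ifit1 is read on the opposite strand for the respective motif.

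The targeted gene was examined first. Cops5 (chromosome 1 from 10024601 to 10038168, GRCm38) was at 139, 48.4, 136 and 107 CPM in WT and 86.1, 65.3, 63.8 and 42.5 CPM in mutant samples (log2 fold change -0.62 ± 0.36, edgeR adjusted p = 0.349). WT replicate 3 was below 3 of the mutant samples, so the groups overlapped and the difference was within their spread, and a count over the whole gene cannot tell exons excised by Cre from the rest. Cnp, the gene that drives Cre and encodes a myelin enzyme, was at 5458, 7028, 14140 and 4955 CPM in WT and 667, 1661, 212 and 518 CPM in mutant samples (log2 fold change -3.27 ± 0.61, edgeR adjusted p = 0.0104), with every mutant sample below every WT sample. The mutants carry the Cnp-Cre driver and the labels do not say whether the controls do. An effect of the driver on Cnp can therefore not be told apart from one of Jab1 loss. Of the 10 subunits of the COP9 signalosome 0 passed the test, with a median log2 fold change of -0.31 and 8 of them below 0. Gps1, subunit 1, was at 155, 184, 225 and 157 CPM in WT and 156, 191, 72.8 and 62.2 CPM in mutant samples (-0.48, edgeR adjusted p = 0.499). Cops6, the partner of JAB1 in the core, was at 150.0, 106, 209 and 140.0 CPM in WT and 109.6, 198, 92.5 and 58.4 CPM in mutant samples (-0.29, edgeR adjusted p = 0.703), both with overlap. Of the 23 cullins, NEDD8 enzymes and adaptors 0 passed, with a median of -0.31. At an unadjusted p below 0.05 there were 0 COP9 subunits and 5 genes of the cullin list (1 higher, 4 lower), and DESeq2 called 0 in either list. Rnf7 and Rbx1, the RING subunits of cullin ligases, were at 425, 158, 653 and 389 CPM in WT and 198, 402, 170.4 and 297 CPM in mutant samples (-0.49, edgeR adjusted p = 0.548) and at 281, 95.7, 284 and 199.6 CPM in WT and 215, 354, 199.9 and 225 CPM in mutant samples (0.32, edgeR adjusted p = 0.665), with overlap.

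The label of the sorted cells was checked against markers. Markers of mature oligodendrocytes were abundant in all samples, and the sum over 26 of them was 75180, 62690, 149200 and 67900 CPM in WT and 39730, 49040, 16760 and 28700 CPM in mutant samples. The highest mutant sample (replicate 2) was below the lowest WT sample. Ptprc, which encodes CD45 and was selected against in the sort, was at 0.114, 0, 0.189 and 1.57 CPM in WT and 56.8, 31.7, 100.2 and 54.5 CPM in mutant samples (log2 fold change 7.16 ± 1.29, edgeR adjusted p = 0.00889), with no overlap. The 20 markers of homeostatic microglia summed to 394, 426, 473 and 479 CPM in WT and 3167, 1347, 2194 and 3075 CPM in mutant samples, where mutant replicate 2 was the lowest mutant sample and still above all WT samples. Among the defining markers P2ry12, a purinergic receptor of microglia, was at 14.97, 3.68, 14.8 and 10.4 CPM in WT and 25.8, 39.2, 31.03 and 45.1 CPM in mutant samples (log2 fold change 1.81 ± 0.45, edgeR adjusted p = 0.0347). Tmem119 was at 7.904, 4.09, 11.4 and 9.65 CPM in WT and 75.9, 27.1, 48.9 and 24.5 CPM in mutant samples (log2 fold change 2.54 ± 0.48, edgeR adjusted p = 0.0104), both without overlap. P2ry13 was at 2.79, 1.65, 4.96 and 7.12 CPM in WT and 35.6, 6.38, 6.75 and 12.4 CPM in mutant samples (2.001, edgeR adjusted p = 0.118) and did not pass.

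Other cell types were followed in the same way. Of 14 endothelial markers 7 were higher, with a median log2 fold change of 2.298, and their sum was 1448, 1334, 869 and 1214 CPM in WT and 8367, 1317, 3436 and 5964 CPM in mutant samples, so that mutant replicate 2 lay within the WT range while the other mutant samples lay above it. Without that sample 12 of the 14 were called and without other samples as few as 3 (without WT replicate 5 or 6 or mutant replicate 1 or 4). Cldn5, a protein of endothelial tight junctions, was at 152, 141, 69.2 and 122 CPM in WT and 1149, 185, 341 and 726 CPM in mutant samples (log2 fold change 2.43 ± 0.54, edgeR adjusted p = 0.021). Cdh5, the endothelial cadherin, was at 5.17, 4.702, 2.76 and 2.599 CPM in WT and 33.2, 9.503, 37.6 and 29.7 CPM in mutant samples (log2 fold change 2.98 ± 0.53, edgeR adjusted p = 0.00796). Flt1, a receptor for VEGF, and Slco1a4, a transporter of the blood-brain barrier, had log2 fold changes of 2.98 and 2.67. Pecam1 was at 6.599, 23.04, 3.15 and 6.099 CPM in WT and 81.9, 11.6, 44.7 and 37.1 CPM in mutant samples (2.296, edgeR adjusted p = 0.0684) and did not pass. Of 12 mural cell markers 5 were higher (sum 320.1, 568, 312 and 324 CPM in WT and 1149, 1042, 1006 and 1721 CPM in mutant samples). Rgs5, a marker of pericytes, was at 40.1, 22.3, 32.2 and 9.42 CPM in WT and 87.3, 107, 82.7 and 239.8 CPM in mutant samples (log2 fold change 2.44 ± 0.50, edgeR adjusted p = 0.0146). Kcnj8, a potassium channel of pericytes, was at 10.98, 6.62, 4.09 and 6.73 CPM in WT and 21.6, 53.5, 26.4 and 42.3 CPM in mutant samples (log2 fold change 2.45 ± 0.44, edgeR adjusted p = 0.00868), without overlap. Pdgfrb was at 58.4, 188, 39.98 and 118 CPM in WT and 90.6, 70.1, 96.2 and 104 CPM in mutant samples (-0.05, edgeR adjusted p = 0.966). Vtn (log2 fold change 2.28), Higd1b (2.51) and Abcc9 (2.75) were the other mural markers called. Of 10 choroid plexus markers 4 were higher, and when single samples were left out 1 (without WT replicate 1, mutant replicate 1, mutant replicate 3 or mutant replicate 4) to 5 (without mutant replicate 2) were. Ttr, the transthyretin of choroid plexus, was at 3086, 1211, 287 and 4026 CPM in WT and 11330, 6311, 22290 and 14670 CPM in mutant samples (log2 fold change 2.79 ± 0.73, edgeR adjusted p = 0.0408), Calml4 had a log2 fold change of 3.27, Kcne2 one of 2.28 and Prlr one of 2.34, whereas Folr1 (2.18, edgeR adjusted p = 0.136) and Kl (2.098, edgeR adjusted p = 0.115) did not pass.

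For astrocytes 0 of 15 markers passed in edgeR (4 at an unadjusted p below 0.05, 1 in DESeq2, 1 in limma-voom), and their sum was 18870, 24040, 10540 and 17930 CPM in WT and 14890, 12840, 12260 and 6772 CPM in mutant samples, with overlap. Of the 15, 14 had a log2 fold change below 0, with a median of -0.49. The most abundant, Clu (-0.14, edgeR adjusted p = 0.864) and Aldoc (-0.28, edgeR adjusted p = 0.727), overlapped too. Gfap was at 10.9, 41.1, 9.04 and 11.2 CPM in WT and 58.5, 49.2, 41.6 and 18.7 CPM in mutant samples (1.33, edgeR adjusted p = 0.169). Aqp4 was at 548, 748, 352 and 543 CPM in WT and 408, 429.8, 439.5 and 167 CPM in mutant samples (-0.49, edgeR adjusted p = 0.489). Aldh1l1 was at 149, 304, 85.5 and 152 CPM in WT and 103, 90.9, 90.8 and 39.8 CPM in mutant samples (-0.98, edgeR adjusted p = 0.196). Astrocyte transcripts were thus present in the sorted cells of both genotypes. Neuron markers summed to 347, 217, 203 and 240.4 CPM in WT and 446, 846, 356 and 482 CPM in mutant samples, without overlap, and 14 of 15 had a log2 fold change above 0, with a median of 1.35. In edgeR 1 of them passed, Meg3, a long noncoding RNA, at 23.8, 11.03, 12.1 and 15.3 CPM in WT and 123, 63.2, 61.7 and 151 CPM in mutant samples (log2 fold change 2.801 ± 0.41, edgeR adjusted p = 0.00378), and Snap25 (0.52, edgeR adjusted p = 0.51), Syt1 (1.84, edgeR adjusted p = 0.176) and Rbfox3 (1.64, edgeR adjusted p = 0.147) did not. Of 8 erythroid markers 7 were tested and 0 passed (4 at an unadjusted p below 0.05, 0 in DESeq2), and Hba-a1 (1.98, edgeR adjusted p = 0.185), Hba-a2 (2.29, edgeR adjusted p = 0.138) and Hbb-bs (2.24, edgeR adjusted p = 0.176), near-identical globin copies in part, were highest in mutant replicate 1. Hbb-bs ranged from 303 CPM in WT replicate 3 to 39330 CPM in mutant replicate 1, with a median log2 fold change of 2.24 over the list. Markers of lymphocytes and circulating myeloid cells were low in all samples. The 8 B cell markers summed to 3.21, 0.05397, 2.36 and 6.43 CPM in WT and 47.3, 23.8, 35.99 and 23.1 CPM in mutant samples and the 12 neutrophil and monocyte markers to 2.28, 1.27, 0.684 and 1.47 CPM in WT and 16.8, 10.2, 8.09 and 13.7 CPM in mutant samples, both without overlap. Of the 12 T cell markers 3 passed the filter. Cd3e, Cd3d and Cd3g were below 1 CPM in nearly all samples. The exceptions were Cd3d in mutant replicate 1 (3.90 CPM) and Cd3g in mutant replicate 3 (2.995 CPM). Trbc2, with 0 counts in WT, was called at least 77.1-fold higher by the group mean (edgeR adjusted p = 0.0371). It was at 0 CPM in mutant replicate 2 and at 2.61 to 3.116 CPM in the other mutants, so the groups overlapped. With single samples left out Trbc2 was called only without mutant replicate 2, and limma-voom did not call it. The neutrophil genes S100a8, S100a9 and Ly6g were below 1 CPM in all 8 samples, and of 12 neutrophil and monocyte markers only Ly6c2 was tested (2.86, edgeR adjusted p = 0.065). Cd79a and Cd79b of B cells were at 0 CPM in at least 1 mutant sample each and 4.86 CPM at most, and Cd22, also a receptor of microglia, was the 1 of 3 tested B cell markers called in edgeR (log2 fold change 7.93 ± 1.45, edgeR adjusted p = 0.00922), while DESeq2 and limma-voom each called all 3. Border macrophage markers had 2 of 7 tested genes called, Stab1 (log2 fold change 3.47 ± 0.66, edgeR adjusted p = 0.0109) and Mrc1 (log2 fold change 4.96 ± 1.09, edgeR adjusted p = 0.021), the latter at 0.0662, 0.0405, 0.0631 and 0.0667 CPM in WT and 1.81, 1.07, 2.62 and 1.33 CPM in mutant samples, whereas Cd163 was at 2.95, 3.91, 4.02 and 4.54 CPM in WT and 3.005, 2.24, 2.32 and 4.09 CPM in mutant samples (-0.28, edgeR adjusted p = 0.859) and Lyve1 had counts in 1 sample only, mutant replicate 3 (2.78 CPM). Of 8 Schwann cell markers 4 were tested and 1, Cdh19, was lower (log2 fold change -1.81 ± 0.35, edgeR adjusted p = 0.0126), while Prx, of peripheral myelin, was below 1 CPM in all 8 samples and Pmp22 had a log2 fold change of -0.86, edgeR adjusted p = 0.252. In such bulk samples, fewer cells of a type and less RNA per cell cannot be told apart, and the part that cells of other types had in the differences described below was not tested.

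**Figure D1:**
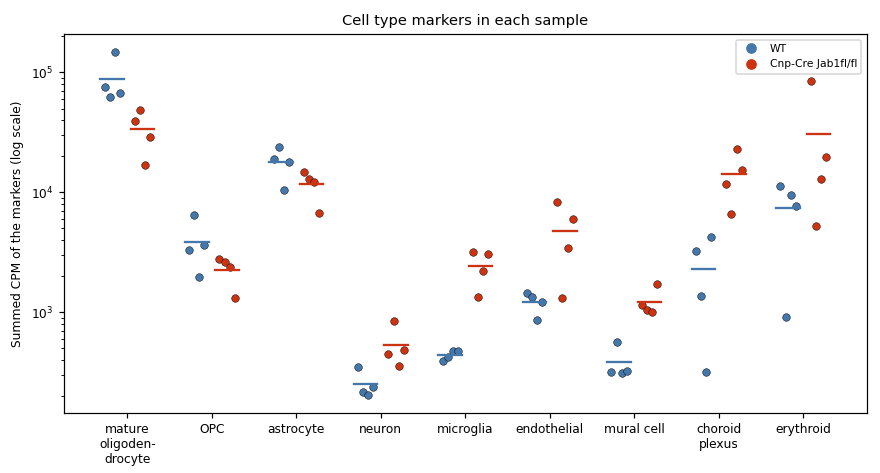
Summed CPM of the marker genes of 9 cell types (log scale) in each of the 4 WT (blue) and 4 Cnp-Cre Jab1fl/fl (red) samples, drawn in the order of the replicate numbers with the group mean as a line. Microglia, mural cell, choroid plexus and neuron markers were higher in every mutant sample than in any WT sample and mature oligodendrocyte markers lower, while endothelial, erythroid, astrocyte and OPC markers overlapped.

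The higher genes with the smallest p were mostly genes of myeloid cells. Cyth4 (chromosome 15 from 78597047 to 78622019), an exchange factor for ARF GTPases in leukocytes, was at 2.08, 4.24, 3.37 and 3.04 CPM in WT and 205, 142, 296 and 177 CPM in mutant samples (log2 fold change 6.13 ± 0.41, edgeR adjusted p = 1.28e-04). Adap2 (chromosome 11 from 80154105 to 80178958), which binds ARF6, was at 2.08, 2.42, 2.89 and 1.25 CPM in WT and 79.9, 66.5, 171 and 106 CPM in mutant samples (log2 fold change 5.75 ± 0.46, edgeR adjusted p = 2.89e-04), and 8.18% of its exon bases are shared with Adap2os on the opposite strand. Both were lowest in mutant replicate 2 and highest in mutant replicate 3, and no mutant sample came near WT. Pld4, a nuclease of endolysosomes, was at 1.57, 2.21, 2.65 and 0.955 CPM in WT and 79.1, 51.4, 92.02 and 66.2 CPM in mutant samples (log2 fold change 5.42 ± 0.43, edgeR adjusted p = 2.89e-04). The transcription factor Irf8, which directs macrophage and microglia development, was at 0.917, 1.32, 1.39 and 0.855 CPM in WT and 42.8, 26.4, 47.6 and 23.7 CPM in mutant samples (log2 fold change 5.09 ± 0.45, edgeR adjusted p = 4.17e-04). Again mutant replicate 2 was among the lowest mutant samples and the groups stayed apart. Ccdc88b, a regulator of the cytoskeleton in immune cells, was at 1.201, 0.816, 0.863 and 0.2 CPM in WT and 86.4, 39.9, 80.1 and 70.3 CPM in mutant samples (log2 fold change 6.62 ± 0.59, edgeR adjusted p = 4.17e-04). Pou2f2, a transcription factor of lymphoid and myeloid cells, was at 1.07, 0.513, 0.915 and 3.24 CPM in WT and 209.6, 106, 224 and 199 CPM in mutant samples (log2 fold change 7.13 ± 0.67, edgeR adjusted p = 4.53e-04). Arhgap45, a GTPase-activating protein, was at 1.36, 0.243, 1.58 and 2.02 CPM in WT and 191, 156, 389 and 157 CPM in mutant samples (log2 fold change 7.55 ± 0.72, edgeR adjusted p = 4.53e-04). These 3 were a few CPM at most in WT.

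Some leading genes were absent or nearly so from WT. Ccl4, a chemokine, was at 0, 0.0405, 0 and 0 CPM in WT and 48.5, 16.2, 47.95 and 60.4 CPM in mutant samples (edgeR adjusted p = 4.17e-04). Itgax, the integrin CD11c, had 2 counts in all WT samples together and was at 13.9, 8.17, 27.2 and 12.04 CPM in mutants, 3136 times (95% exact counting interval 868 to 25902) the WT level (edgeR adjusted p = 4.52e-04). Ifi204, an interferon-inducible DNA sensor, had 0 counts in WT and was at 32.8, 11.1, 26.7 and 26.1 CPM in mutants, at least 851-fold higher when 3 counts are taken as the floor in each library (edgeR adjusted p = 4.53e-04). In all 3 genes mutant replicate 2 was the lowest mutant sample, and every mutant sample was far above WT. Il6ra, a receptor subunit for interleukin 6, was at 0.463, 1.25, 0.736 and 0.555 CPM in WT and 25.8, 23.9, 63.4 and 46.2 CPM in mutant samples (log2 fold change 5.86 ± 0.56, edgeR adjusted p = 4.55e-04).

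Among the lower genes, Jph4 (chromosome 14 from 55106826 to 55116935) had the smallest p. This junctophilin couples the plasma membrane to the endoplasmic reticulum, and it was at 51.2, 54.8, 100.2 and 64.7 CPM in WT and 5.63, 4.198, 2.84 and 6.32 CPM in mutant samples (log2 fold change -3.71 ± 0.39, edgeR adjusted p = 7.38e-04). Erbb3 (chromosome 10 from 128567523 to 128589652), a receptor for neuregulins that oligodendrocytes carry, was at 56.5, 162, 108 and 57.6 CPM in WT and 10.2, 13.01, 8.503 and 9.88 CPM in mutant samples (log2 fold change -3.09 ± 0.40, edgeR adjusted p = 0.00202). Mutant samples of both genes lay in a narrow range far below WT. Faim2, an inhibitor of apoptosis through Fas, was at 101, 302, 306 and 108 CPM in WT and 7.29, 22.1, 6.401 and 11.4 CPM in mutant samples (log2 fold change -4.003 ± 0.54, edgeR adjusted p = 0.00265). Kctd4 was at 66.7, 35.2, 126 and 53.5 CPM in WT and 8.56, 3.78, 8.52 and 4.71 CPM in mutant samples (log2 fold change -3.33 ± 0.47, edgeR adjusted p = 0.00337). Cep97, which keeps centrioles from growing cilia, was at 73, 88.9, 118 and 82.6 CPM in WT and 23.3, 23.2, 24.96 and 18.8 CPM in mutant samples (log2 fold change -1.88 ± 0.27, edgeR adjusted p = 0.00365). Sv2a, a vesicle protein, was at 111, 261, 188 and 111 CPM in WT and 17.3, 36.1, 21.7 and 28.2 CPM in mutant samples (log2 fold change -2.58 ± 0.38, edgeR adjusted p = 0.00367). Gpt, the alanine aminotransferase, was at 166, 182, 221 and 152 CPM in WT and 55.8, 31.4, 46.8 and 37.6 CPM in mutant samples (log2 fold change -1.95 ± 0.29, edgeR adjusted p = 0.00396). None of these genes, chosen by their small p, overlapped between the groups. Gjc3, the connexin Cx29 of oligodendrocytes, was at 570.0, 452, 1075 and 649.5 CPM in WT and 82.2, 178, 88 and 91.7 CPM in mutant samples (log2 fold change -2.53 ± 0.38, edgeR adjusted p = 0.00408), and mutant replicate 2 was highest among the mutants. Olfml1 (log2 fold change -2.59), Nrbp2 (-2.42) and Sbf1 (-1.94), a phosphatase-like protein of membrane traffic, completed the 12, together with BC051408, which had 0 counts in mutants and was at least 284-fold lower (edgeR adjusted p = 0.00331).

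**Figure D2:**
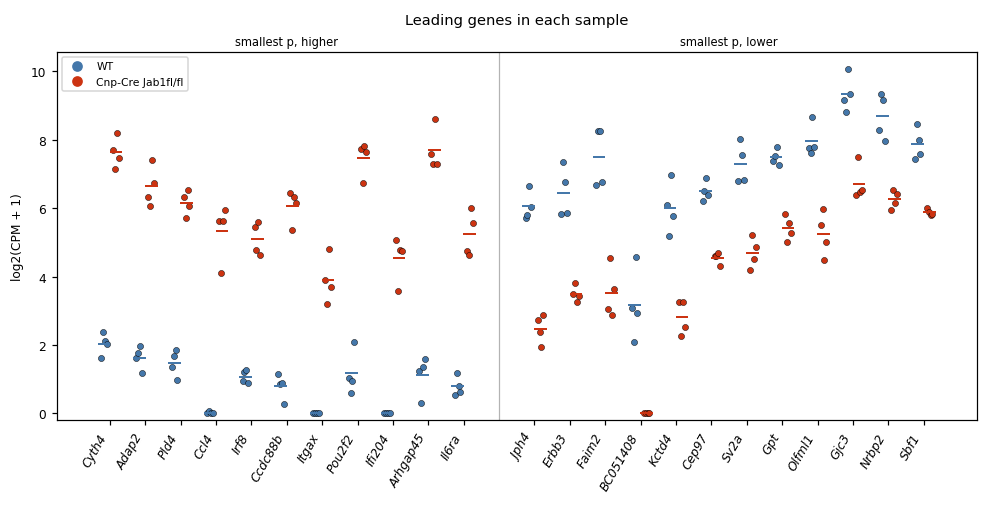
log2(CPM + 1) of 11 of the 12 genes with the smallest p among those higher (left) and of the 12 with the smallest p among those lower (right) in Cnp-Cre Jab1fl/fl oligodendrocytes, 1 point per sample in the order of the replicate numbers, with group means as lines. WT and mutant samples did not overlap for any of the 23 genes, which their choice by the smallest p in these samples favours.

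Genes of the oligodendrocyte program were lower in mutants as a group. Of 26 markers of mature oligodendrocytes 12 were lower, with a median log2 fold change of -1.93, and with single samples left out from 4 (without mutant replicate 4) to 18 (without mutant replicate 2) were lower. Opalin, a transmembrane protein of myelin, was at 1257, 445, 2033 and 1066 CPM in WT and 20.3, 152, 13.5 and 44.4 CPM in mutant samples (log2 fold change -4.29 ± 0.78, edgeR adjusted p = 0.00909). Mal, a proteolipid of membrane traffic in myelin, was at 3317, 2058, 6186 and 2707 CPM in WT and 269, 932, 224 and 666 CPM in mutant samples (log2 fold change -2.66 ± 0.53, edgeR adjusted p = 0.0137). Mog, at the outer surface of myelin, was at 1486, 1195, 3290 and 1399 CPM in WT and 184, 879, 133 and 245 CPM in mutant samples (log2 fold change -2.26 ± 0.60, edgeR adjusted p = 0.0423). In each of them mutant replicate 2 was the highest mutant sample, and for Mog it came closest to WT. Mbp, a major structural protein of myelin, did not pass the test and was at 10400, 7556, 18380 and 8888 CPM in WT and 25550, 12250, 4838 and 7884 CPM in mutant samples (0.27, edgeR adjusted p = 0.81). For Mbp the groups overlapped, with mutant replicate 1 above and mutant replicate 3 below all WT samples, and without mutant replicate 1 its log2 fold change was -0.33.

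Markers of earlier stages differed from this. Of 11 markers of newly formed oligodendrocytes that were tested, 1 was higher, Bmp4, a ligand that restrains oligodendrocyte differentiation, at 6.19, 4.19, 5.61 and 3.97 CPM in WT and 21.4, 26.98, 6.57 and 20.7 CPM in mutant samples (log2 fold change 2.03 ± 0.50, edgeR adjusted p = 0.0334), and the median was 0.38. With single samples left out Bmp4 was called only without mutant replicate 3. Enpp6 was at 126, 90.03, 328 and 138 CPM in WT and 45.5, 95.7, 12.2 and 36.1 CPM in mutant samples (-1.75, edgeR adjusted p = 0.0896). Bcas1 was at 216, 92.2, 243 and 136 CPM in WT and 552, 113, 77.1 and 139.5 CPM in mutant samples (0.48, edgeR adjusted p = 0.689). Itpr2 was at 111, 177, 94.3 and 165 CPM in WT and 173, 90.97, 184 and 136 CPM in mutant samples (0.22, edgeR adjusted p = 0.761). None of these 3 separated the groups. Of 16 OPC markers 1 was higher, the proteoglycan NG2 encoded by Cspg4, at 14.5, 19.1, 4.79 and 6.46 CPM in WT and 30.3, 26.5, 44.4 and 34.2 CPM in mutant samples (log2 fold change 1.72 ± 0.47, edgeR adjusted p = 0.049), which pericytes also express and which without single samples was called only without WT replicate 3 or mutant replicate 2. Pdgfra, the growth factor receptor that defines OPCs, was at 0.378, 1.85, 4.41 and 0 CPM in WT and 11.1, 0, 1.52 and 13.5 CPM in mutant samples (2.12, edgeR adjusted p = 0.538). Ptprz1 was at 671, 1029, 375 and 864 CPM in WT and 391, 391, 604 and 299.7 CPM in mutant samples (-0.68, edgeR adjusted p = 0.315).

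Of 15 transcription factors of the lineage 7 were lower, with a median log2 fold change of -1.59 and from 2 (without WT replicate 3, WT replicate 5 or mutant replicate 1) to 8 (without mutant replicate 2) when single samples were left out. Sox8 and Sox10, paralogs that maintain the oligodendrocyte state, were at 189, 283, 258 and 164 CPM in WT and 61.5, 91.01, 58.2 and 64.2 CPM in mutant samples (log2 fold change -1.59 ± 0.29, edgeR adjusted p = 0.00922) and at 86.95, 448, 202 and 86.5 CPM in WT and 11.2, 44.4, 14.96 and 45.1 CPM in mutant samples (log2 fold change -2.72 ± 0.64, edgeR adjusted p = 0.0271). Olig1 was at 664, 860.1, 1253 and 540.0 CPM in WT and 193, 290.2, 71.2 and 134 CPM in mutant samples (log2 fold change -2.16 ± 0.44, edgeR adjusted p = 0.0146). Myrf, which switches on myelin genes, was at 77.6, 238, 137 and 67.2 CPM in WT and 7.38, 38.97, 4.22 and 21.8 CPM in mutant samples (log2 fold change -2.75 ± 0.67, edgeR adjusted p = 0.0306). All 4 were without overlap, and for Sox10 and Myrf the WT samples differed among themselves, with replicate 3 the highest. Zfp536 (log2 fold change -2.51), Nkx6-2 (-1.82) and St18 (-1.82) were also lower.

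The synthesis of myelin lipids was lower at several steps. Of 25 genes of sterol synthesis tested, 6 were lower and 24 had a log2 fold change below 0, with a median of -1.11. The count went from 1 (without WT replicate 5) to 11 (without mutant replicate 2). Srebf2, the transcription factor that drives the pathway, was at 181, 347, 216 and 144 CPM in WT and 57.5, 91.1, 50.3 and 58.5 CPM in mutant samples (log2 fold change -1.67 ± 0.34, edgeR adjusted p = 0.0141), and its target Hmgcs1, an early enzyme, at 189, 293, 283 and 219 CPM in WT and 117, 123, 56.2 and 48.5 CPM in mutant samples (log2 fold change -1.404 ± 0.36, edgeR adjusted p = 0.036). Lss, a later enzyme, had a log2 fold change of -1.54 and Insig1, a brake on SREBP, one of -1.69. For these 4 the groups were apart. For fatty acids 4 of 22 genes were lower and all 22 had a log2 fold change below 0 (median -1.13). Elovl6, which elongates palmitate, was at 122, 109.6, 156 and 73.5 CPM in WT and 12.7, 40.6, 10.4 and 13.1 CPM in mutant samples (log2 fold change -2.48 ± 0.46, edgeR adjusted p = 0.00946). Scd2, the desaturase of brain, was at 2301, 5520, 3812 and 1945 CPM in WT and 690.1, 1163, 464 and 736 CPM in mutant samples (log2 fold change -2.04 ± 0.42, edgeR adjusted p = 0.0162). Fasn, the fatty acid synthase, was at 224, 626, 269.6 and 199 CPM in WT and 94.9, 114, 98.4 and 77.1 CPM in mutant samples (log2 fold change -1.66 ± 0.39, edgeR adjusted p = 0.0269). Hacd1, also of elongation, had a log2 fold change of -1.38, and 2 (without mutant replicate 3 or mutant replicate 4) to 5 (without mutant replicate 2) genes of the list were lower when single samples were left out. Of 16 genes of galactolipids and sphingolipids 4 were lower and 1 was higher (median -0.94). Fa2h, which makes the hydroxylated fatty acids of myelin galactolipids, was at 173, 678, 428 and 122 CPM in WT and 21.8, 74.9, 12.9 and 40.4 CPM in mutant samples (log2 fold change -3.12 ± 0.65, edgeR adjusted p = 0.0166). Cers2, which makes very long chain ceramides, was at 987, 936, 2131 and 974 CPM in WT and 223, 507, 115 and 161 CPM in mutant samples (log2 fold change -2.22 ± 0.48, edgeR adjusted p = 0.0201). Degs1 (-1.59) and Kdsr (-1.03), of ceramide synthesis, were lower as well, and with single samples left out 1 (without WT replicate 5, mutant replicate 1, mutant replicate 3 or mutant replicate 4) to 7 (without mutant replicate 2) of the list. Sgms1, a sphingomyelin synthase, went the other way at 77.5, 107, 61.3 and 75.5 CPM in WT and 444, 79.5, 232 and 269 CPM in mutant samples (log2 fold change 1.798 ± 0.46, edgeR adjusted p = 0.0364), with mutant replicate 2 within the WT range.

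**Figure D3:**
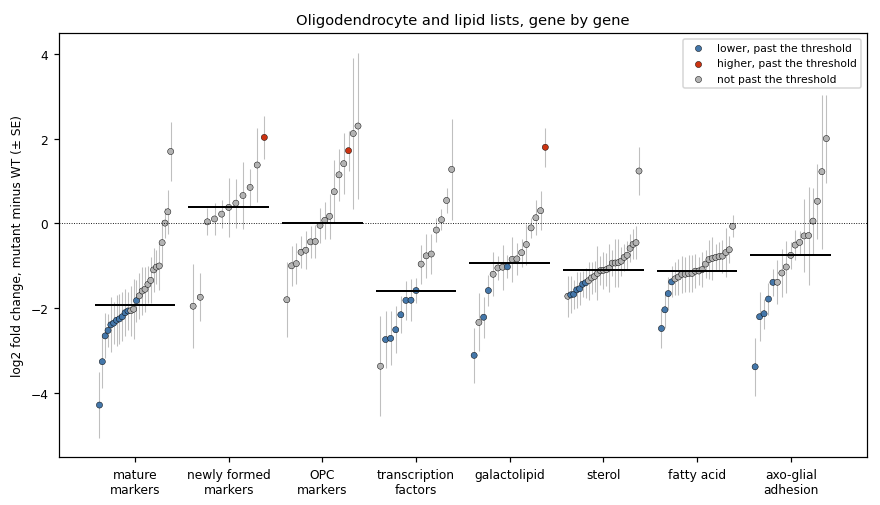
Fitted log2 fold change of each tested gene (points, ± SE) in 8 lists of oligodendrocyte and lipid genes, sorted within a list, with the median of the list as a black line. Genes past the threshold are blue (lower) or red (higher); the medians of mature markers and transcription factors were -1.93 and -1.59, and all genes of fatty acid synthesis lay below 0.

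Contacts with axons and signals from them were described next. Of 17 genes of axo-glial adhesion 5 were lower (median -0.76). Omg, an oligodendrocyte inhibitor of neurite growth, was at 633, 439, 966 and 613 CPM in WT and 144, 139, 188 and 83.01 CPM in mutant samples (log2 fold change -2.13 ± 0.36, edgeR adjusted p = 0.0066). Cntn2, a contactin of the juxtaparanode, was at 214, 784, 404 and 209 CPM in WT and 12.7, 61.95, 9.56 and 58.3 CPM in mutant samples (log2 fold change -3.39 ± 0.69, edgeR adjusted p = 0.0149). Nfasc, the neurofascin of the paranode, was at 175, 504, 324 and 173 CPM in WT and 77.2, 89.7, 60.5 and 86.3 CPM in mutant samples (log2 fold change -1.79 ± 0.38, edgeR adjusted p = 0.0174). Each was lower in every mutant sample. With single samples left out 2 (without mutant replicate 1 or mutant replicate 3) to 5 (without mutant replicate 2) were called. Ncam1 (-1.39) and Mag (-2.21) were the other genes called. In neuregulin, ErbB and FGF signalling, Erbb3, Erbb4 (-1.93, edgeR adjusted p = 0.0467), Fgf1 (-1.403, edgeR adjusted p = 0.0104) and Fgfr2 (-1.53, edgeR adjusted p = 0.0433) were lower, and Igf1r, the receptor for IGF1, was the 1 of 16 genes higher, at 55.97, 60.9, 31.7 and 59.5 CPM in WT and 170.2, 62.4, 198 and 168 CPM in mutant samples (log2 fold change 1.65 ± 0.40, edgeR adjusted p = 0.0294). For Igf1r mutant replicate 2 was near the highest WT sample, and with single samples left out it was called only without mutant replicate 2. For the lower genes of this list the count was 2 (without any 1 sample other than WT replicate 1 or mutant replicate 2) to 4 (without mutant replicate 2). Of 18 genes of gap and tight junctions, Gjc3 and Jam3 (-1.56, edgeR adjusted p = 0.0234) were lower and Cldn5 was higher.

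Among channels and receptors few genes passed. Of 24 potassium channel genes 2 were lower, Kcna1 at 133, 327, 326 and 140.3 CPM in WT and 21.9, 100.4, 18.3 and 58.3 CPM in mutant samples (log2 fold change -2.11 ± 0.55, edgeR adjusted p = 0.0415) and Kcna6 (-2.72, edgeR adjusted p = 0.0273), and 40.4% of the exon bases of Kcna6 are shared with a gene on the opposite strand. The list of 24 sodium and calcium channel genes also holds Jph4, which is a junctophilin and not a channel. In this list Jph4 and Cacnb4 (-1.97, edgeR adjusted p = 0.0139) were lower and Cacna1d (1.56, edgeR adjusted p = 0.0388) higher. Of 21 glutamate receptor genes 3 were lower. Grm3, a metabotropic receptor, was at 221, 446, 395 and 298 CPM in WT and 132, 96.3, 78.3 and 23.97 CPM in mutant samples (log2 fold change -1.93 ± 0.46, edgeR adjusted p = 0.0291), and the ionotropic subunits Grik1 (-2.78) and Gria4 (-2.17) were lower too. These 3 had no overlap, but when single samples were left out 0 (without WT replicate 3, WT replicate 5, WT replicate 6 or mutant replicate 3) to 2 (without mutant replicate 2 or mutant replicate 4) of the list were called. Of 13 GABA receptor genes 0 passed in edgeR (1 at an unadjusted p below 0.05, 0 in DESeq2), and the most abundant were Gabrb1 (-0.77, edgeR adjusted p = 0.321) and Gabbr1 (-0.25, edgeR adjusted p = 0.676).

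Cytoskeletal genes changed in both directions. Of 31 tubulins and microtubule-associated proteins 5 were lower and 3 higher. Tubb4a, the tubulin of mature oligodendrocytes, was at 2505, 4435, 6940 and 3404 CPM in WT and 384, 1233, 190.2 and 609 CPM in mutant samples (log2 fold change -2.73 ± 0.56, edgeR adjusted p = 0.0149). Tppp, which nucleates microtubules in myelin sheaths, was at 306, 981, 704 and 236 CPM in WT and 64.9, 207, 41.4 and 91.9 CPM in mutant samples (log2 fold change -2.36 ± 0.57, edgeR adjusted p = 0.0308). Clasp2 (-1.42), Map6d1 (-2.55) and Map7 (-1.27) were lower with them. Map1b, typical of growing processes, was at 139, 101, 141 and 135 CPM in WT and 323, 467, 217 and 358 CPM in mutant samples (log2 fold change 1.52 ± 0.30, edgeR adjusted p = 0.0128), and Tuba1c (1.74) and Tubb6 (2.19) were also higher. With single samples left out 2 (without WT replicate 5, mutant replicate 1 or mutant replicate 3) to 5 (without mutant replicate 2) genes were lower and 1 (without any 1 sample other than WT replicate 3, mutant replicate 2 or mutant replicate 3) to 2 (without WT replicate 3, mutant replicate 2 or mutant replicate 3) higher. Of 27 kinesin and dynein genes 4 kinesins were lower, Kif13a (-1.92, edgeR adjusted p = 0.00787), Kif21a (-1.42, edgeR adjusted p = 0.0226), Kif1b (-1.15, edgeR adjusted p = 0.0314) and Kif1a (-0.997, edgeR adjusted p = 0.041), and 1 dynein chain was higher, Dync1i2 (1.35, edgeR adjusted p = 0.0426). For the lower kinesins the count was 1 (without WT replicate 1, WT replicate 5, WT replicate 6 or mutant replicate 3) to 4 (without WT replicate 3 or mutant replicate 2) when single samples were left out. Among 9 septins, filament proteins of which several support the myelin sheath, Sept4 was at 3682, 2342, 7281 and 3059 CPM in WT and 424, 1236, 258 and 583 CPM in mutant samples (log2 fold change -2.604 ± 0.53, edgeR adjusted p = 0.0147), and Sept8 (-1.31) and Sept7 (-1.46) were lower, while Sept6 (1.56) and Sept11 (1.46) were higher. Of the lower septins 1 (without any 1 sample other than WT replicate 3, WT replicate 6 or mutant replicate 2) to 3 (without mutant replicate 2) were called when single samples were left out. Of the higher septins 0 to 1 were called in these fits. Sept11 was called only without WT replicate 3 or mutant replicate 2, and Sept6 in none of them. Counted by the start of the symbol, septins (3 of 10 lower) had the highest share of lower genes among 180 families with at least 10 tested members, followed by Dock (3 of 11, Dock10, Dock5 and Dock3), Adcy (2 of 10, Adcy5 and Adcy8), Ttll (2 of 10, Ttll7 and Ttll5) and Sox (3 of 18, Sox8, Sox2ot and Sox10), with Adamts and Car (2 of 12 each) at the same share. These ranks rest on 2 or 3 calls each. With single samples left out Ttll5 was called only without WT replicate 1, and neither Adcy5 nor Adcy8 was called in every such fit. Dock had 3 genes higher as well, Dock8 and Dock2, of leukocytes, and Dock6.

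Markers of microglia were higher in mutants. Of 20 markers of the homeostatic state 16 were higher and all 20 had a log2 fold change above 0, with a median of 3.29, and with single samples left out from 13 to 16 were called. Csf1r, the receptor that microglia need to survive, was at 11.2, 21.02, 25.4 and 14.2 CPM in WT and 256, 156, 272 and 154 CPM in mutant samples (log2 fold change 3.67 ± 0.38, edgeR adjusted p = 7.11e-04). Siglech was at 4.13, 1.34, 3.98 and 10.1 CPM in WT and 149, 64.6, 125 and 149 CPM in mutant samples (log2 fold change 4.76 ± 0.61, edgeR adjusted p = 0.00201). Fcrls was at 7.83, 2.48, 6.38 and 11.4 CPM in WT and 113, 63.5, 112 and 92.5 CPM in mutant samples (log2 fold change 3.88 ± 0.48, edgeR adjusted p = 0.00171). In each the lowest mutant sample was several times the highest WT sample. Cx3cr1, the fractalkine receptor, was at 13.5, 3.21, 17.9 and 10.2 CPM in WT and 135, 56.7, 124 and 95.5 CPM in mutant samples (log2 fold change 3.33 ± 0.51, edgeR adjusted p = 0.0045). The markers of the homeostatic state include genes of complement, and C1qa, C1qb and C1qc, which form the recognition molecule C1q, were at 5.14, 2.93, 8.67 and 2.999 CPM in WT and 134, 42.7, 61.8 and 89.1 CPM in mutant samples (log2 fold change 4.18 ± 0.50, edgeR adjusted p = 0.00171), at 18.6, 5.101, 37.7 and 30.2 CPM in WT and 545, 192, 334 and 707 CPM in mutant samples (log2 fold change 4.41 ± 0.64, edgeR adjusted p = 0.00374) and at 12.4, 6.44, 29.7 and 27.6 CPM in WT and 338, 115, 140.5 and 460.4 CPM in mutant samples (log2 fold change 3.92 ± 0.62, edgeR adjusted p = 0.00505). Mutant replicate 2 was the lowest mutant sample for each of them.

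Genes of the disease-associated state of microglia were higher as well, 13 of 25 with a median log2 fold change of 3.88. Trem2, a lipid receptor, and Tyrobp, its adaptor, were at 3.101, 0.641, 2.92 and 2.19 CPM in WT and 113, 56.4, 130.1 and 98.4 CPM in mutant samples (log2 fold change 5.62 ± 0.55, edgeR adjusted p = 5.34e-04) and at 7.84, 0.405, 8.49 and 9.69 CPM in WT and 183, 68.02, 48.2 and 180.2 CPM in mutant samples (log2 fold change 4.303 ± 0.83, edgeR adjusted p = 0.0117). Clec7a, the receptor Dectin-1, had 0 counts in WT and was at 20.7, 10.6, 11.5 and 3.28 CPM in mutants, at least 406-fold higher (edgeR adjusted p = 0.00197), and Lgals3, a galectin of phagocytes, was at 1.995, 1.38, 1.41 and 4.71 CPM in WT and 43.6, 81.4, 22.7 and 42.8 CPM in mutant samples (log2 fold change 4.42 ± 0.57, edgeR adjusted p = 0.0021). The sum over this list overlapped between the groups (26620, 16150, 26230 and 23390 CPM in WT and 19920, 23120, 15850 and 19970 CPM in mutant samples) and holds Apoe, which astrocytes express too, at 12520, 9562, 7554 and 11490 CPM in WT and 9595, 9504, 8379 and 7125 CPM in mutant samples (-0.14, edgeR adjusted p = 0.858). With single samples left out 8 (without mutant replicate 3) to 13 (without mutant replicate 2) of the genes were called.

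Receptors with ITAM motifs recruit the kinase SYK, and 16 of the 23 tested genes of this pathway were higher (median 4.298, from 10 (without mutant replicate 3) to 15 (without mutant replicate 2) with single samples left out). Fyb, an adaptor, was at 4.03, 0.256, 5.75 and 7.17 CPM in WT and 497, 212, 502 and 568 CPM in mutant samples (log2 fold change 6.82 ± 0.89, edgeR adjusted p = 0.00214). Fcer1g, the common chain of Fc receptors, was at 5.53, 3.06, 4.69 and 4.68 CPM in WT and 92.2, 30, 42.9 and 113 CPM in mutant samples (log2 fold change 4.08 ± 0.48, edgeR adjusted p = 0.00168). Inpp5d, the phosphatase SHIP1, was at 0.132, 2.18, 2.42 and 2.11 CPM in WT and 66.6, 33.9, 133 and 47.7 CPM in mutant samples (log2 fold change 5.496 ± 0.82, edgeR adjusted p = 0.00403). Vav1, an exchange factor whose promoter is shown above, was at 2.03, 0.479, 4.997 and 0.489 CPM in WT and 29.9, 27.1, 51.8 and 33.6 CPM in mutant samples (log2 fold change 4.298 ± 0.77, edgeR adjusted p = 0.00861). All 4 were apart between the groups, with mutant replicate 2 the lowest mutant sample in each. Of 5 Fc gamma receptors 4 were higher, Fcgr3 (log2 fold change 3.23 ± 0.44, edgeR adjusted p = 0.00265), Fcgr2b (log2 fold change 2.89 ± 0.62, edgeR adjusted p = 0.0178), Fcgr1 (log2 fold change 4.09 ± 1.002, edgeR adjusted p = 0.0321) and Fcgr4, which had 0 counts in WT (at least 131-fold higher, edgeR adjusted p = 0.017) and was below 1 CPM in mutant replicates 2 and 3. For these receptors the count was 2 (without WT replicate 5 or mutant replicate 1) to 5 (without mutant replicate 2) when single samples were left out.

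Of 18 complement genes 8 were higher (median 3.25), including the 3 chains of C1q and the integrin chains Itgax and Itgam, of complement receptors. Itgam, or CD11b, was at 1.95, 0.567, 1.504 and 2.06 CPM in WT and 14.4, 11.5, 35.8 and 16.1 CPM in mutant samples (log2 fold change 3.81 ± 0.63, edgeR adjusted p = 0.0065), but 70% of its exon bases are shared with a predicted gene on the same strand, so its count is uncertain. Of 17 leukocyte integrins and adhesion genes 7 were higher. Cd37, a tetraspanin, was at 0.265, 1.05, 3.398 and 1.05 CPM in WT and 49.6, 31.4, 89.3 and 37.8 CPM in mutant samples (log2 fold change 5.32 ± 0.75, edgeR adjusted p = 0.00331), while Cd82, a tetraspanin that oligodendrocytes express, was the 1 gene lower, at 209, 420.4, 549 and 185 CPM in WT and 36.8, 75.9, 24.7 and 33.9 CPM in mutant samples (log2 fold change -2.88 ± 0.46, edgeR adjusted p = 0.00538). The phagocyte NADPH oxidase, which makes superoxide, had 4 of 7 genes higher (median 5.06). Its catalytic chain Cybb had 0 counts in WT and was at 5.81, 4.32, 7.14 and 5.698 CPM in mutants, at least 202-fold higher (edgeR adjusted p = 0.00301). The partner chain Cyba was at 19.2, 12.98, 5.54 and 13.4 CPM in WT and 124, 40.3, 62.3 and 93.96 CPM in mutant samples (log2 fold change 2.77 ± 0.47, edgeR adjusted p = 0.00679), and the cytosolic subunit Ncf1 was at 1.74, 0.459, 0.505 and 0.278 CPM in WT and 16.6, 15.6, 35.9 and 22.8 CPM in mutant samples (log2 fold change 5.06 ± 0.72, edgeR adjusted p = 0.00331). For these 3 genes the groups did not overlap, and 3 to 5 genes of the list were called without single samples.

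Among 22 Toll-like receptors and adaptors 4 were higher and 18 did not pass. Tlr1 had 2 counts in WT together and was at 9.82, 4.36, 5.495 and 3.17 CPM in mutants, 1226 times (95% exact counting interval 339 to 10133) the WT level (edgeR adjusted p = 0.00214), Tlr13 had 0 counts in WT and was at 0.517, 1.32, 4.78 and 1.74 CPM in mutants (at least 73.6-fold higher, edgeR adjusted p = 0.0117), and Ly86, a partner of a Toll-like receptor, and Cd14, the coreceptor for endotoxin, were at 1.19, 0.594, 4.02 and 4.07 CPM in WT and 101, 35.1, 49.3 and 60.5 CPM in mutant samples (log2 fold change 4.77 ± 0.67, edgeR adjusted p = 0.00331) and at 2.64, 0.634, 2.17 and 4.94 CPM in WT and 20.1, 13.9, 25.8 and 32.6 CPM in mutant samples (log2 fold change 3.28 ± 0.64, edgeR adjusted p = 0.0119). Of 17 purinergic and chemokine receptors 8 were higher, among them Cx3cr1, P2ry12, P2ry14 (log2 fold change 2.15 ± 0.40, edgeR adjusted p = 0.0104) and Gpr34 (log2 fold change 3.46 ± 0.73, edgeR adjusted p = 0.017). With single samples left out 3 (without mutant replicate 4) to 7 (without mutant replicate 2) of them were called. The adenosine receptor Adora1 was the 1 gene lower, at 192, 376, 292 and 206 CPM in WT and 103, 117, 50.8 and 41.4 CPM in mutant samples (log2 fold change -1.66 ± 0.39, edgeR adjusted p = 0.0267). Of 26 genes of the Siglec, CD300, Clec and MS4A families 17 were tested, and 11 of these were higher. The median over the 17 was 6.16, while 9 genes did not pass the filter. Genes near 0 in WT pass it only through samples where they are higher, so this median leans upward. Cd33, an inhibitory Siglec, was at 0.0756, 0.02699, 0 and 0.0444 CPM in WT and 22.8, 10.2, 23.01 and 6.49 CPM in mutant samples (log2 fold change 8.801 ± 1.06, edgeR adjusted p = 0.00171). Cd300lf was at 0, 0, 0.0105 and 0.0333 CPM in WT and 16.4, 4.12, 13.4 and 10.1 CPM in mutant samples (log2 fold change 10.05 ± 1.28, edgeR adjusted p = 0.00197). In WT both were below 0.1 CPM in every sample.

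Regulators of the myeloid lineage were higher too. Of 20 myeloid transcription factors 12 were higher (median 3.21, from 10 to 12 with single samples left out). Besides Irf8, these included Mef2c, needed for microglia, at 20.9, 21.3, 12.2 and 12.4 CPM in WT and 172, 95.1, 238 and 261 CPM in mutant samples (log2 fold change 3.65 ± 0.41, edgeR adjusted p = 0.00128). Lyl1 was at 0.114, 0.2699, 0.02104 and 0.411 CPM in WT and 14.2, 11.1, 23.2 and 18.3 CPM in mutant samples (log2 fold change 6.46 ± 0.91, edgeR adjusted p = 0.00331), and Spi1, which encodes PU.1, at 1.29, 0.479, 0.652 and 1.5 CPM in WT and 12.2, 10.1, 11.4 and 14.2 CPM in mutant samples (log2 fold change 3.73 ± 0.64, edgeR adjusted p = 0.00695). Each was apart from WT in all mutant samples. Of 29 haematopoietic regulators of GTPases and actin 16 were higher and 1 was lower (median 4.19). Rasal3, a Ras regulator of leukocytes, was at 0.208, 0, 0.126 and 0.178 CPM in WT and 51.02, 37.2, 88.5 and 37.9 CPM in mutant samples (log2 fold change 8.86 ± 0.95, edgeR adjusted p = 8.90e-04). Dock10, which oligodendrocytes express, was lower at 149.8, 391, 422 and 181 CPM in WT and 42.4, 76.8, 64.4 and 48.6 CPM in mutant samples (log2 fold change -2.18 ± 0.40, edgeR adjusted p = 0.00901).

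**Figure D4:**
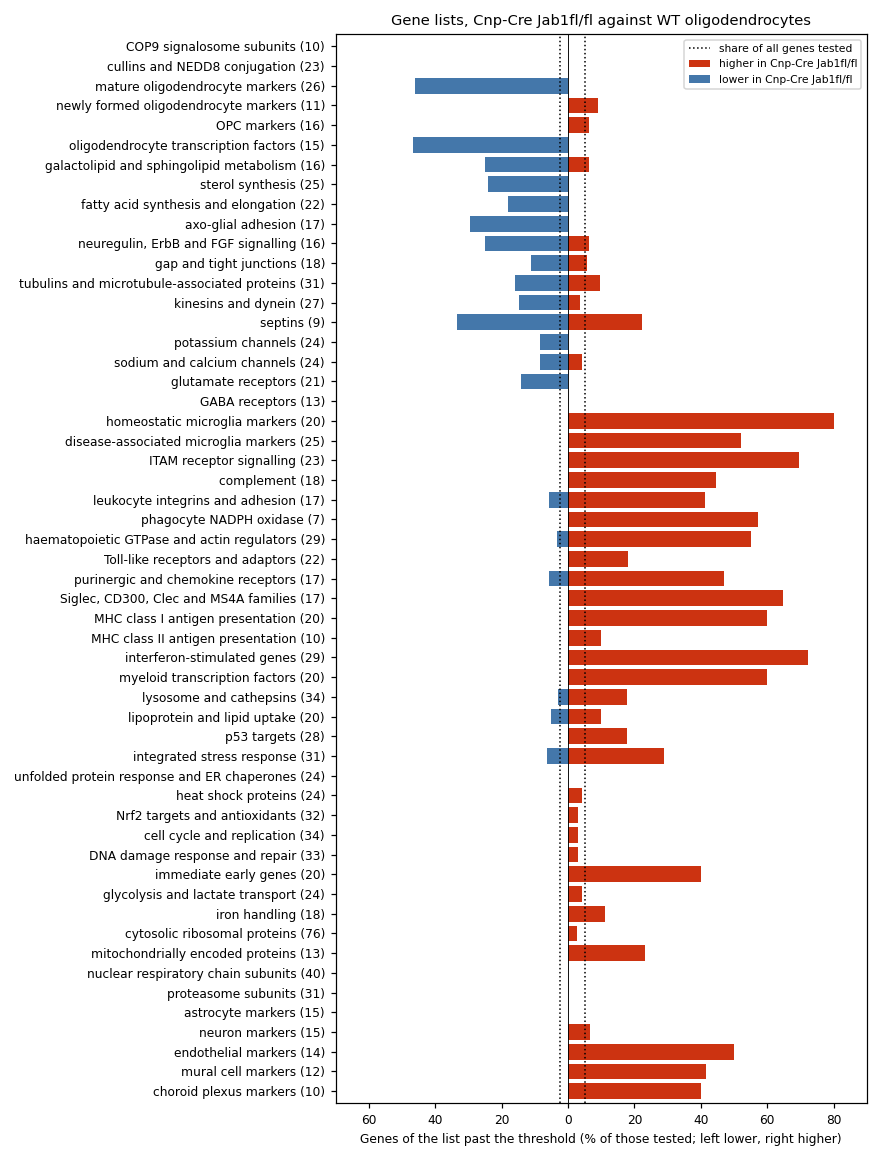
Share of the tested genes of each list drawn (number tested in brackets) past the threshold in edgeR, higher to the right and lower to the left of 0, with the share of all genes tested (5.19% and 2.46%) as dotted lines. The lists of T cell, B cell, neutrophil and monocyte, Schwann cell, border macrophage, erythroid and Fc gamma receptor genes are not drawn. Lists of myeloid and interferon genes extended to the right, oligodendrocyte and lipid lists to the left, and proteasome, respiratory chain and chaperone lists stayed near 0.

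Interferon-stimulated genes were among the lists with the highest share called, 21 of 29 with a median log2 fold change of 3.12, and 18 to 23 remained above the threshold in number when single samples were left out. Usp18, which restrains interferon receptor signalling, was at 5.67, 9.18, 2.64 and 3.77 CPM in WT and 88.4, 82.5, 57.5 and 63.8 CPM in mutant samples (log2 fold change 3.89 ± 0.43, edgeR adjusted p = 0.00114). Bst2, or tetherin, was at 9.12, 7.46, 5.25 and 9.398 CPM in WT and 106, 42.8, 46.6 and 90.9 CPM in mutant samples (log2 fold change 3.31 ± 0.41, edgeR adjusted p = 0.00171). Ifit1, which binds foreign RNA and whose promoter with 2 ISRE matches is shown above, was at 10.3, 11.99, 3.52 and 8.64 CPM in WT and 87.8, 66.2, 73.3 and 124 CPM in mutant samples (log2 fold change 3.47 ± 0.43, edgeR adjusted p = 0.0018). The 4 mutant samples of Usp18 and Ifit1 differed less than 2-fold from each other, and mutant replicate 2 was not set apart. Rtp4 was at 15.6, 12.1, 8.89 and 18.7 CPM in WT and 148, 71.5, 70.1 and 118 CPM in mutant samples (log2 fold change 2.997 ± 0.38, edgeR adjusted p = 0.00195). Irf7, the transcription factor that amplifies the response, was at 13.5, 13.5, 5.23 and 7.26 CPM in WT and 135, 48.96, 113 and 94.1 CPM in mutant samples (log2 fold change 3.44 ± 0.45, edgeR adjusted p = 0.00213). Isg15, a ubiquitin-like protein with 3 ISRE matches, was at 0.548, 4.81, 1.58 and 3.54 CPM in WT and 24.2, 8.595, 14.7 and 21.3 CPM in mutant samples (log2 fold change 2.83 ± 0.71, edgeR adjusted p = 0.0338), where mutant replicate 2 was nearest to the highest WT sample. By the start of the symbol, Ifi had the highest share of higher genes of all families (9 of 14, led by Ifi204, Ifi27l2a and Ifi207), followed by Irf (5 of 11, Irf8, Irf7 and Irf9 first), Ly (5 of 14, Ly86, Ly6e and Ly6a first), Cd (15 of 50, Cd33, Cd300lf and Cd37 first) and Casp and Psmb (3 of 10 each). The Casp genes were Casp4, an inflammatory caspase with 0 counts in WT, Casp6 and Casp8. Microglia, endothelial cells and astrocytes as well as oligodendrocytes can express interferon-stimulated genes, and which cells carried them was not tested.

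MHC class I presents peptides to T cells, and 12 of its 20 genes were higher (median 1.84, from 7 (without WT replicate 1, mutant replicate 1 or mutant replicate 4) to 12 (without mutant replicate 2) with single samples left out). H2-D1, a heavy chain, was at 116, 165, 115 and 124 CPM in WT and 1060, 592, 308 and 714 CPM in mutant samples (log2 fold change 2.48 ± 0.39, edgeR adjusted p = 0.0047). B2m, its light chain, was at 206, 97.5, 109 and 179 CPM in WT and 1163, 588, 511 and 1326 CPM in mutant samples (log2 fold change 2.72 ± 0.43, edgeR adjusted p = 0.00502). Heavy chains share much of their sequence, so the count of H2-D1 is uncertain. Psmb8, a subunit of the immunoproteasome, was at 3.498, 2.67, 1.22 and 5.68 CPM in WT and 69.3, 12.6, 50.6 and 35.8 CPM in mutant samples (log2 fold change 3.81 ± 0.63, edgeR adjusted p = 0.0065), with Psmb9 and Psmb10 the other Psmb genes called, and Psme1, an activator of the proteasome, at 46.7, 22.8, 33.1 and 50.6 CPM in WT and 122, 104, 128 and 181 CPM in mutant samples (log2 fold change 1.92 ± 0.34, edgeR adjusted p = 0.00788). All mutant samples were above all WT samples in these genes except Psmb9. Of 31 constitutive proteasome subunits, in contrast, 0 passed, with 0 at an unadjusted p below 0.05 and 0 in DESeq2, and a median of 0.12, and Psmb6 and Psmc3 were at 393, 148, 415 and 319 CPM in WT and 282, 472, 265 and 396 CPM in mutant samples (0.27, edgeR adjusted p = 0.727) and at 319, 158, 348 and 246 CPM in WT and 248, 272, 218 and 280.5 CPM in mutant samples (0.05, edgeR adjusted p = 0.951). Of 10 genes of MHC class II presentation 1 was called, Cd74, the invariant chain, at 0.0567, 0, 0 and 0 CPM in WT and 15.8, 4.71, 2.06 and 17.7 CPM in mutant samples (log2 fold change 9.47 ± 1.598, edgeR adjusted p = 0.00682).

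The integrated stress response halts translation and induces ATF4 targets. Of its 31 tested genes 9 were higher and 2 lower, and without single samples 8 to 10 were higher. Atf3, a transcription factor, was at 0.558, 0.749, 0 and 1.22 CPM in WT and 85.98, 180.2, 89.3 and 122 CPM in mutant samples (log2 fold change 7.66 ± 1.003, edgeR adjusted p = 0.00217). Trib3, a pseudokinase, had 0 counts in WT and was at 3.03, 40.5, 13.6 and 11.9 CPM in mutants, at least 608-fold higher (edgeR adjusted p = 0.00227). In both genes mutant replicate 2 was the highest sample. Nupr1 was at 12.8, 9.55, 6.78 and 24.01 CPM in WT and 67.1, 76.8, 68.4 and 81.5 CPM in mutant samples (log2 fold change 2.58 ± 0.41, edgeR adjusted p = 0.00491). Ppp1r15a, which relieves the block of translation, was at 30.5, 26.96, 37.7 and 19.4 CPM in WT and 106, 232, 57.7 and 161 CPM in mutant samples (log2 fold change 2.39 ± 0.41, edgeR adjusted p = 0.00751). Ddit3, the factor CHOP, was at 43.8, 27.6, 61.3 and 58.5 CPM in WT and 88.1, 320.4, 119.5 and 339.9 CPM in mutant samples (log2 fold change 2.296 ± 0.47, edgeR adjusted p = 0.0158). Mutant replicate 2 was the highest for Ppp1r15a and second to mutant replicate 4 for Nupr1 and Ddit3. Asns, the asparagine synthetase, was at 7.61, 4.51, 5.55 and 9.53 CPM in WT and 39.1, 76.2, 22.4 and 22.7 CPM in mutant samples (log2 fold change 2.65 ± 0.48, edgeR adjusted p = 0.00861). Chac1, which degrades glutathione, was at 0, 0, 0 and 0.111 CPM in WT and 6.15, 11.8, 0.549 and 22.9 CPM in mutant samples (log2 fold change 8.65 ± 1.83, edgeR adjusted p = 0.0173), with a wide spread among mutants. Psat1 and Phgdh, enzymes of serine synthesis, went the other way at 493, 369, 913 and 427 CPM in WT and 118, 229, 90.6 and 72.5 CPM in mutant samples (log2 fold change -2.002 ± 0.42, edgeR adjusted p = 0.0173) and at 523, 456, 856 and 396 CPM in WT and 154, 301, 142 and 97.7 CPM in mutant samples (log2 fold change -1.57 ± 0.39, edgeR adjusted p = 0.0334). Both were lower in every mutant sample.

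Other stress programs had fewer calls. Of 24 genes of the unfolded protein response and ER chaperones 0 passed (2 at an unadjusted p below 0.05, 0 in DESeq2), and the chaperones Hspa5 and Pdia3 were at 635, 499.9, 582 and 446 CPM in WT and 619, 971, 468 and 601 CPM in mutant samples (0.41, edgeR adjusted p = 0.474) and at 515, 437, 593 and 576 CPM in WT and 637, 747, 408 and 375 CPM in mutant samples (0.14, edgeR adjusted p = 0.84). Of 24 heat shock genes 1 was called, Hspb1 (log2 fold change 2.104 ± 0.53, edgeR adjusted p = 0.0364), and of 32 Nrf2 targets and antioxidants 1, the glutathione peroxidase Gpx1 (log2 fold change 1.54 ± 0.42, edgeR adjusted p = 0.046). Of 28 p53 targets 5 were higher (median 0.88). Cdkn1a, the cell cycle inhibitor p21, was at 89, 45.2, 17 and 22.2 CPM in WT and 366, 398, 369 and 602 CPM in mutant samples (log2 fold change 3.44 ± 0.53, edgeR adjusted p = 0.0044). Fas, a death receptor, was at 14.3, 10.3, 5.39 and 5.54 CPM in WT and 66.6, 18.2, 32.1 and 39.1 CPM in mutant samples (log2 fold change 2.26 ± 0.49, edgeR adjusted p = 0.0197). Btg2 was at 52.8, 33.5, 29.1 and 40.01 CPM in WT and 139.5, 71.8, 73.3 and 84.7 CPM in mutant samples (log2 fold change 1.37 ± 0.32, edgeR adjusted p = 0.0286). Trp53 itself, on the list with its targets, was at 46.5, 38.6, 47.97 and 39.1 CPM in WT and 71.2, 81.05, 67.9 and 110.4 CPM in mutant samples (log2 fold change 1.06 ± 0.27, edgeR adjusted p = 0.036). No sample overlapped for these 4 genes, but with single samples left out 1 (without WT replicate 5) to 5 (without mutant replicate 2) of the list were called. Of 34 genes of the cell cycle and replication Mki67, a marker of cycling cells, was called (log2 fold change 2.302 ± 0.53, edgeR adjusted p = 0.0253). It was not called without WT replicate 3, 5 or 6 or mutant replicate 3. Of the list, 33 had a log2 fold change above 0 and the median was 0.74. The sum was 602.6, 267.1, 341.9 and 364.2 CPM in WT and 426.7, 1285, 425.9 and 347.8 CPM in mutant samples. Only mutant replicate 2 lay above all WT samples. Of 33 genes of DNA repair Lig1 was called (log2 fold change 1.703 ± 0.38, edgeR adjusted p = 0.0219), with a median of 0.18.

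Immediate early genes answer within minutes to stimuli, including the dissociation of tissue. Of 20 tested 8 were higher (median 1.73, from 4 (without mutant replicate 1 or mutant replicate 4) to 9 (without mutant replicate 2) with single samples left out). Klf4 was at 7.299, 6.89, 2.304 and 3.03 CPM in WT and 47.6, 23.9, 93.6 and 48.04 CPM in mutant samples (log2 fold change 3.58 ± 0.55, edgeR adjusted p = 0.00444). Ier2 was at 19.3, 11.4, 11.8 and 12.3 CPM in WT and 87.5, 63.2, 40.1 and 29.6 CPM in mutant samples (log2 fold change 2.12 ± 0.39, edgeR adjusted p = 0.0095). Junb, a subunit of AP-1, was at 8.81, 7.14, 17.4 and 5.88 CPM in WT and 74.8, 33.7, 31.2 and 38.7 CPM in mutant samples (log2 fold change 2.31 ± 0.45, edgeR adjusted p = 0.0117). For all 3 the groups were apart.

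**Figure D5:**
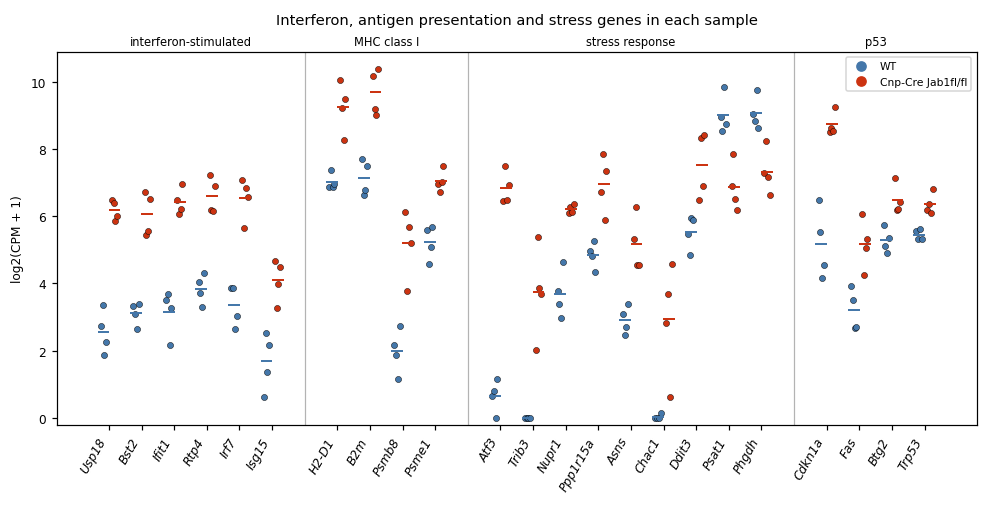
log2(CPM + 1) of named genes of the interferon response, MHC class I, the integrated stress response with serine synthesis, and p53, 1 point per sample in the order of the replicate numbers, with group means as lines. All genes shown were higher in every mutant sample than in any WT sample except Psat1 and Phgdh, which were lower.

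Metabolism and organelles showed few calls. Of 34 genes of lysosome and cathepsins 6 were higher and 1 was lower, with a median of -0.11. The core E-box CACGTG, which TFEB, a regulator of lysosomal genes, binds, was held by 11 of 26 with a promoter. This compares with 8.09% of all genes and 11.2% of the genes tested. Of the 4 higher genes with a promoter 1 held it. The higher ones were led by genes of microglia, Laptm5 (log2 fold change 3.66 ± 0.50, edgeR adjusted p = 0.00287), Ctss (log2 fold change 4.14 ± 0.65, edgeR adjusted p = 0.00491) and Ctsh (log2 fold change 2.49 ± 0.48, edgeR adjusted p = 0.0118), and 3 (without WT replicate 1, WT replicate 6, mutant replicate 1 or mutant replicate 4) to 6 (without mutant replicate 2) were higher when single samples were left out. Npc1, which exports cholesterol from lysosomes, was lower at 201, 135, 247 and 218 CPM in WT and 47.4, 77.2, 60.4 and 74.2 CPM in mutant samples (log2 fold change -1.51 ± 0.30, edgeR adjusted p = 0.0124). Of 20 genes of lipoprotein and lipid uptake Lpl, the lipoprotein lipase, was higher at 0.0189, 2.06, 0 and 0.555 CPM in WT and 36.2, 21.2, 50.2 and 46.7 CPM in mutant samples (log2 fold change 5.98 ± 1.36, edgeR adjusted p = 0.0235), and Ch25h was higher (log2 fold change 7.11 ± 1.96, edgeR adjusted p = 0.049). Of 24 genes of glycolysis and lactate transport 1 passed, Hk2, a hexokinase, at 1.23, 0.681, 0.957 and 3.87 CPM in WT and 32.5, 41.6, 97.4 and 25.97 CPM in mutant samples (log2 fold change 4.995 ± 0.71, edgeR adjusted p = 0.00331), and this held in each of 8 fits that left out a sample. Of 18 genes of iron handling Slc11a1, the iron transporter of phagosomes (log2 fold change 4.93 ± 0.79, edgeR adjusted p = 0.00539), and Cp, the ceruloplasmin (log2 fold change 2.83 ± 0.54, edgeR adjusted p = 0.0109), were higher.

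All 76 cytosolic ribosomal proteins and all 13 mitochondrially encoded proteins had a log2 fold change above 0, with medians of 1.03 and 1.27. In edgeR 2 of the ribosomal genes passed the test, against 55 at an unadjusted p below 0.05, 23 in DESeq2 and 6 in limma-voom. The 2 were Rps19 at 140.5, 26.7, 73.97 and 81.8 CPM in WT and 225, 329, 191 and 332 CPM in mutant samples (log2 fold change 1.85 ± 0.45, edgeR adjusted p = 0.0306) and Rps12 (1.68, edgeR adjusted p = 0.0428), and 0 (without WT replicate 5, WT replicate 6, mutant replicate 1 or mutant replicate 4) to 7 (without WT replicate 1) were called when single samples were left out. WT replicate 3 was far below the other WT samples for both genes, and the sum over all 76 was 7779, 1945, 5493 and 5101 CPM in WT and 8546, 11150, 7101 and 11850 CPM in mutant samples, where WT replicate 1 lay above mutant replicate 3. Of the mitochondrial genes mt-Co3 (1.799, edgeR adjusted p = 0.0356), mt-Atp6 (1.66, edgeR adjusted p = 0.0357) and mt-Co2 (1.73, edgeR adjusted p = 0.04), subunits of cytochrome oxidase and of ATP synthase, passed, with a sum over the list of 21830, 12750, 21180 and 22720 CPM in WT and 67650, 23830, 31290 and 35930 CPM in mutant samples, without overlap, and 0 (without any 1 sample other than WT replicate 1 or mutant replicate 2) to 7 (without mutant replicate 2) were called when single samples were left out. Of nuclear genes of the respiratory chain 0 of 40 were called (3 at an unadjusted p below 0.05, 2 in DESeq2), with a median of 0.18. Atp5b was at 1075, 768, 1213 and 956 CPM in WT and 1101, 1243, 683 and 804 CPM in mutant samples (0.05, edgeR adjusted p = 0.952). Cox4i1 was at 753, 222, 596 and 582 CPM in WT and 609, 763, 599 and 912 CPM in mutant samples (0.54, edgeR adjusted p = 0.447).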

How the data were processed

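O1+ CD45- cells were sorted from brains of P40 mice, each sample pooling 2 brains, and polyadenylated RNA was amplified with SMART-Seq v4 before sequencing. Per the labels and the study's methods, the authors trimmed reads with Trimmomatic 0.32, aligned them with STAR 2.5.3a to GRCm38 and counted them per gene symbol with featureCounts. The deposited values are raw counts, and whether counting used strand and how it treated reads with several alignments is not given in the sources used here. Antisense partners, gene families and amplification by PCR can therefore affect single genes, and intervals and floors cover counting error only.

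All 12 columns were used to filter genes (1 CPM in at least 4 samples) and to scale the printed CPM (TMM factors). WT and Cnp-Cre Jab1fl/fl samples, 4 of each, were compared with edgeR 4.0.16 (R 4.3.3), using the quasi-likelihood test with Benjamini-Hochberg adjustment over the 17716 genes and a threshold of 0.05. In counts simulated for this comparison over 17716 genes, of which 200 carried a log2 fold change of 3, 54% were recovered and 2.7% of calls were false. p-values measure the spread between these pools of animals. Total counts of 61485556 to 153495112 per sample made differences between samples, not counting, the main error: replicates differed by far more than sampling noise, so none was counted as a duplicate. Against a group with 0 counts a fold is a bound, with 3 counts as the floor per library. DESeq2 1.42.0, limma-voom 3.58.1 with quality weights, other scaling, other filters, all 12 samples, a replicate block, a minimum fold change and leaving out each sample were tried. Samples with the numbers 1 and 3, which both groups share, did not deviate together (r of deviations -0.0461 and 0.0799). Whether a number marks a shared day or litter was not tested.

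The 61 gene lists and the rule for named genes were chosen with earlier results of these data known. Named were Cops5, Cnp and Ptprc, the 12 genes with the smallest p in each direction (without predicted genes), in each list up to 4 called genes with the smallest p and all called against its main direction or, where none was called, the 2 most abundant, the 5 leading families by symbol, and the first 3 markers of each other cell type. Other named genes, among them Mog, Mbp, Myrf, Enpp6, Bcas1, Itpr2, Irf7, Isg15, Asns, Ddit3, Chac1, Vav1, Spi1, Apoe, further called genes of short lists and all genes under the other observations, were chosen after their values were seen. Some genes that the rule names are not reported here. Of the genes tested, 99.1% matched 1 gene of GENCODE M21, and promoters are from RefSeq. Of the named genes, 18 share at least 10% of their exon bases with another gene, in most cases on the opposite strand, among them Csf1r, Adora1, Jam3, Hmgcs1, Rasal3, Rtp4, Psmb8, Psmb9, Cacnb4, Dock3 and Bcas1.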

Additional observations from a re-analysis of the deposited data

Results flagged for a closer look

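For each named gene and group of 4 samples, the gap between the highest or lowest sample and its nearest neighbour was taken on log2(CPM + 1). It was divided by the range of the group, and 38 of 528 groups were above the 95% critical value of Dixon's test (the ratio is in brackets). Chance alone gives about 1 in 20 groups. A ratio of 1 arose where the other samples of the group were all at 0 CPM. In these WT groups the sample apart was itself near the floor, at 0.04048 CPM for Ccl4, 0.05673 for Cd74, 0.1111 for Chac1 and 0.3238 for Ch25h. For Mrc1 it was at 0.04048 CPM against 0.06312 to 0.06665 CPM. WT replicate 1 stood apart as the highest for Cd74 (1) and Ier2 (0.845) and as the lowest for Inpp5d (0.914). WT replicate 3 stood apart as the highest for Ccl4 (1), Ch25h (1), Gfap (0.864) and Tubb6 (0.918) and as the lowest for Fcgr1 (0.852), Hba-a1 (0.872), Hba-a2 (0.878), Hbb-bs (0.841), Map1b (0.887), Mrc1 (0.866) and Tyrobp (0.906). WT replicate 5 stood apart as the highest for Cers2 (0.935), Il33 (0.865), Olfml1 (0.834), Sox2ot (0.884) and St18 (0.941) and as the lowest for Clu (0.838) and Igf1r (0.871). WT replicate 6 stood apart as the highest for Chac1 (1). Mutant replicate 1 stood apart as the highest for Rbfox3 (0.835) and as the lowest for Higd1b (0.932). Mutant replicate 2 stood apart as the highest for Elovl6 (0.833), Gjc3 (0.86) and Il33 (0.85) and as the lowest for Flt1 (0.867), Fyb (0.864), Gbp3 (0.885), Igf1r (0.858), Pou2f2 (0.837) and Trbc2 (0.907). Mutant replicate 3 stood apart as the highest for Hpgds (0.936) and as the lowest for Kif1a (0.862). Mutant replicate 4 stood apart as the highest for Cdkn1a (0.836) and as the lowest for Aldh1l1 (0.866) and Aqp4 (0.923).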

How the results depend on the processing

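DESeq2 called more genes than edgeR (1687 higher and 1002 lower against 919 and 435), among them all 1354 of edgeR, and no filter on low counts left 581 higher genes over 36070 tested. With single samples left out, 504 to 1196 genes were higher and 174 to 667 lower. WT replicates 1, 5 and 6 and mutant replicates 1, 3 and 4 each lowered the number of higher genes, and WT replicates 3, 5 and 6 and mutant replicates 1, 3 and 4 the number of lower genes, by over 1.5 times when left out, with 1 sample fewer, while mutant replicate 2 raised the number of lower genes. With the replicate number as a block, which was fitted over all 12 samples, 76 genes were higher and 3 lower, of which 76 and 2 were among those of the main test. For the numbers that WT and mutants share, 1 and 3, samples with the same number did not deviate together (r of -0.0461 and 0.0799). So few pairs cannot show whether a number marks a shared day or litter, which no label states. Pairs with the double mutants were not checked. Scaling by RLE or upper-quartile factors, all 12 samples, a minimum mean of 10 CPM, limma-voom and a minimum log2 fold change of 1 gave 644 to 1307 higher and 297 to 614 lower genes. The median log2 fold change of all genes was -0.0963 in limma-voom, against 0.02 in the main test. Of the 225 named genes past the threshold, 140 were called in all 8 fits that left out a sample, 225 by DESeq2 and 26 with the replicate block, and none turned its direction in any alternative. Named genes that did not pass and whose sign turned were Atp5b (-0.0564 with no filter, -0.079 in limma-voom and -0.0916 to 0.167 with single samples left out), Bcas1 (-0.521 to 0.756 with single samples left out), Cd163 (1.26 with the block), Cops6 (0.0553 with the block), Mbp (-0.33 to 0.597 with single samples left out), Pdgfrb (0.00634 with upper-quartile factors, 0.0655 at a mean of at least 10 CPM, 0.153 with the block, 0.331 in limma-voom and -0.316 to 0.42 with single samples left out), Pdia3 (-0.00951 in limma-voom and -0.042 to 0.252 with single samples left out) and Psmc3 (-0.0626 with no filter, -0.0376 in limma-voom and -0.153 to 0.188 with single samples left out). The cause was not tested. Low-count genes, such as those with 0 counts in WT, are the ones that depth limits.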

Other observations

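Some further genes, chosen after their values were seen, fell outside the lists. Ptgds, which makes prostaglandin D2 in oligodendrocytes and other cells of the brain, was at 7868, 3085, 12920 and 6467 CPM in WT and 232, 897, 426 and 795 CPM in mutant samples (log2 fold change -3.57 ± 0.56, edgeR adjusted p = 0.00491). Hpgds, the haematopoietic enzyme for the same product, was at 1.61, 0.0742, 3.19 and 2.99 CPM in WT and 37.01, 39.1, 86.3 and 38.99 CPM in mutant samples (log2 fold change 4.81 ± 0.88, edgeR adjusted p = 0.0094). The pair moved in opposite directions, and neither gene overlapped between the groups. Ccp110, the partner of Cep97 in the cap of centrioles, was at 396, 332, 527 and 308 CPM in WT and 48.7, 90.1, 68.04 and 129 CPM in mutant samples (log2 fold change -2.095 ± 0.36, edgeR adjusted p = 0.00695), lower in every mutant sample as Cep97 was.

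Among receptors and transporters of oligodendrocytes, Gpr37, an orphan receptor that restrains differentiation, was at 349, 715, 786 and 338 CPM in WT and 43.2, 135, 25.5 and 67.7 CPM in mutant samples (log2 fold change -2.904 ± 0.52, edgeR adjusted p = 0.00867). Plxnb3, a semaphorin receptor, was at 121, 321, 218 and 90.8 CPM in WT and 7.16, 42.9, 10.6 and 18.4 CPM in mutant samples (log2 fold change -3.14 ± 0.59, edgeR adjusted p = 0.0105). Lpar1, a receptor for lysophosphatidic acid, was at 311, 287, 520.1 and 260.2 CPM in WT and 56.6, 107, 16.4 and 36.6 CPM in mutant samples (log2 fold change -2.56 ± 0.50, edgeR adjusted p = 0.0126). Mutant replicate 2 was the highest mutant sample for each and still below WT. The chloride importer Slc12a2 was at 344, 653, 703 and 364 CPM in WT and 125, 205, 78.9 and 83.5 CPM in mutant samples (log2 fold change -1.96 ± 0.39, edgeR adjusted p = 0.0137). The alarmin Il33 was at 386, 360.0, 888 and 407 CPM in WT and 69.97, 224, 56.9 and 63.6 CPM in mutant samples (log2 fold change -2.196 ± 0.50, edgeR adjusted p = 0.0235).

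Of the interferon-inducible GTPases, which act against intracellular microbes, 6 were picked here because they were higher, and the rest of the family was not counted. Iigp1 was at 5.23, 1.12, 1.29 and 2.24 CPM in WT and 43.1, 18.8, 33.02 and 33.8 CPM in mutant samples (log2 fold change 3.83 ± 0.59, edgeR adjusted p = 0.0045). Igtp was at 7.55, 8.703, 4.07 and 10.4 CPM in WT and 91.3, 40.02, 33.3 and 42.1 CPM in mutant samples (log2 fold change 2.86 ± 0.44, edgeR adjusted p = 0.00453). Gbp7 was at 11.2, 16.4, 9.81 and 13.3 CPM in WT and 92.8, 28.4, 75.5 and 85.7 CPM in mutant samples (log2 fold change 2.604 ± 0.41, edgeR adjusted p = 0.00471). Gbp3 (log2 fold change 3.29 ± 0.53, edgeR adjusted p = 0.00569), Gbp9 (log2 fold change 3.81 ± 0.74, edgeR adjusted p = 0.0118) and Tgtp1 (log2 fold change 3.03 ± 0.58, edgeR adjusted p = 0.0115) were higher too. For Gbp3, Gbp7 and Gbp9 mutant replicate 2 was far below the other mutant samples, and the groups did not overlap. Members of this family are similar in sequence, so that reads may be split among them.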
